A study of Mus musculus with 24 samples.

Results

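RNA polymerase II (Pol II) halts shortly after it starts on most genes, and the factors described here hold it there or let it go. The 9 genes were chosen by symbol and matched to Ensembl gene identifiers, 9 of the 55471 genes annotated in the SLIM-seq table. They are *Cdk9*, *Ccnt1* and *Ccnt2* (the kinase and the cyclins of P-TEFb), *Hexim1* (its inhibitor), *Nelfa*, *Nelfb* and *Nelfe* (subunits of the negative elongation factor, NELF), and *Ell* and *Ell2* (elongation factors of the ELL family). The study followed N6-methyladenosine (m6A) on RNA through the maternal-to-zygotic transition of the mouse, using wild-type B6D2F1 (C57BL/6J x DBA/2N) animals, whose females were 8 weeks old and superovulated. SLIM-seq, an m6A immunoprecipitation (IP) for small amounts of RNA, was made at 3 stages, each with 3 libraries of the IP and 3 of the input: the MII oocyte, the embryo late in its first cell cycle (L1C) and the embryo late in the 2-cell stage (L2C). The inputs were not passed over the antibody and serve as the RNA-seq of their stage. In a second experiment zygotes received Cas13d mRNA with 3 crRNAs against *Ythdc1*, a nuclear m6A reader (KD, 3 libraries), or Cas13d mRNA alone (NC, 3 libraries), and were collected at L2C. NC embryos therefore carry Cas13d but no crRNA, and no group received an unrelated crRNA. Nothing in the labels ties replicates to separate collections of oocytes or embryos, so p-values measure the spread between these libraries, which may be technical.

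In the cell, P-TEFb frees paused Pol II by phosphorylating NELF, DSIF and the tail of the polymerase. A large share of P-TEFb is kept inactive by HEXIM1 on the 7SK RNA, and ELL proteins join P-TEFb in the super elongation complex and raise the rate of elongation. Oocytes at MII do not transcribe, and the major wave of zygotic genome activation in the mouse falls at the 2-cell stage.

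Total estimated counts ranged from 11107421 to 39739950 over the 18 SLIM-seq libraries, and total exon counts from 8696476 to 14500548 over the 5 KD and NC libraries that cover the whole annotation. SLIM-seq counts were made over whole gene spans, introns included, whereas the KD experiment was counted on exons. Of 12 genes known from cumulus cells, which surround the oocyte, 7 were at 1 CPM (counts scaled to a common library size) or more in MII inputs, where the list summed to between 64.0 and 77.2 CPM, 8 in L1C inputs, where it summed to between 49.1 and 52.4 CPM, and 2 in L2C inputs, where it summed to between 4.95 and 6.53 CPM, with *Ptx3* at 0 at every input stage. The paper states that cumulus cells were removed from the oocytes with hyaluronidase. The part of this list in the changes between stages was not tested. A list of 10 oocyte transcripts summed to between 8862 and 10214 CPM in MII inputs, between 5516 and 6172 CPM in L1C inputs and between 922.9 and 975.7 CPM in L2C inputs, with none at 0. A list of 10 transcripts of the 2-cell stage summed to between 28.1 and 33.9 CPM at MII, with *Usp17la* at 0, between 100.6 and 138.1 CPM at L1C and between 608.9 and 829.4 CPM at L2C, with none at 0.

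The input levels, counted over gene spans, of 7 of the 9 genes differed between MII and L1C, and all 9 differed between L1C and L2C and between MII and L2C (edgeR, adjusted p under 0.05). Such calls were common: 56.2%, 82.9% and 84.6% of the 19903 genes tested were called in these comparisons. Levels are scaled to the library, so rises and falls are relative to its other RNA and are not amounts per oocyte or embryo. From MII to L1C *Hexim1* and *Nelfe* rose and *Cdk9*, *Ccnt1*, *Nelfa*, *Nelfb* and *Ell* fell, where 31.9% of all genes rose and 24.3% fell. From L1C to L2C, 7 members rose and *Ccnt2* and *Ell* fell, against 44.1% and 38.8% of all genes. The same 7 and 2 members were higher and lower at L2C when set against MII, where 47.5% of all genes were higher and 37.1% lower. The median log2 change of the 9 members was -0.64, 2.98 and 1.26 in the 3 comparisons, against 0.16, 0.17 and 0.40 over all genes tested.

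**Figure D1:**
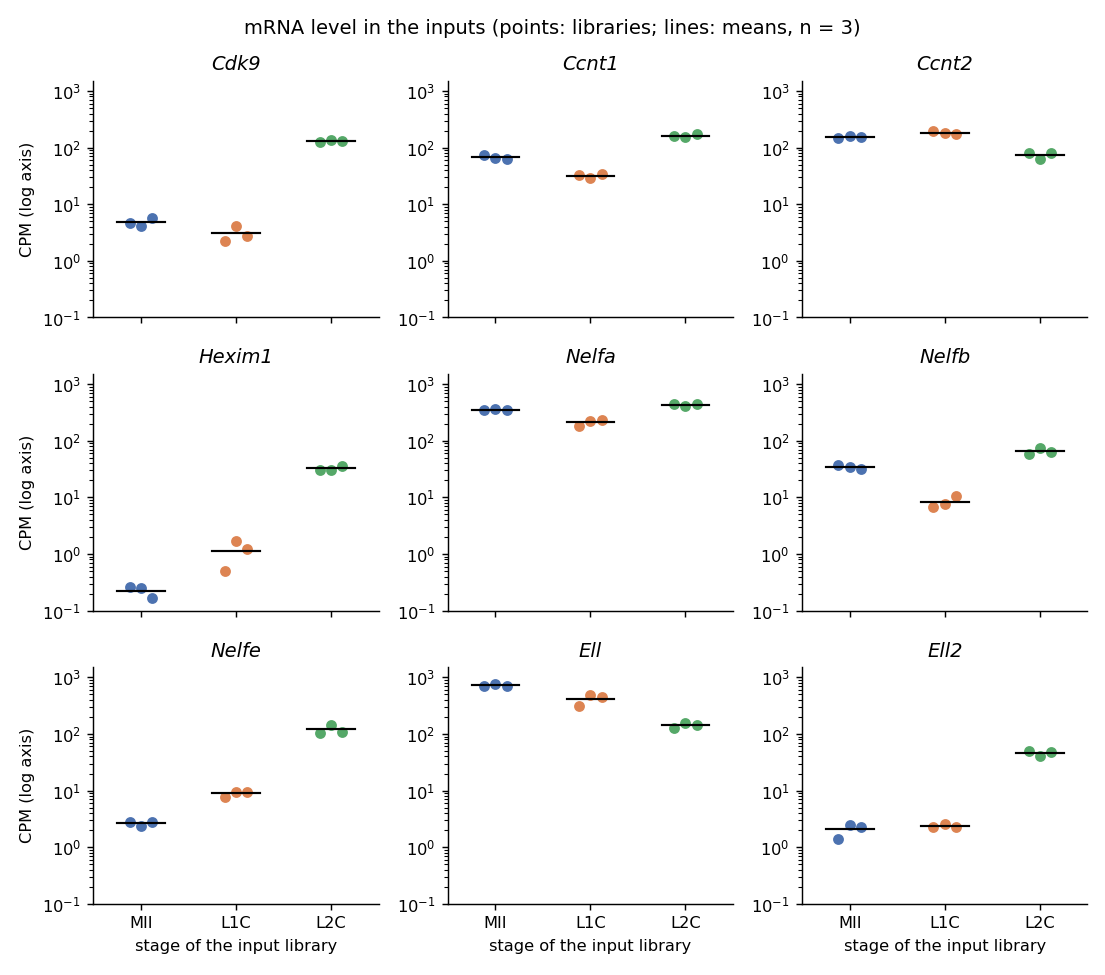
Level of each member in the 9 inputs, in TMM-scaled CPM on a log axis, with 1 point per library and a line at the mean of the 3 libraries of a stage. *Cdk9*, *Hexim1*, *Nelfe* and *Ell2* sit far higher at L2C than at MII and L1C, while *Ccnt2* and *Ell* are lowest at L2C.

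The stretch upstream of the start site is shown for 3 members with differing courses, taken from the RefSeq promoter table (GRCm38.p6), which matched 8 of the 9 members and had no entry for *Nelfe*. *Hexim1* rose at both steps, *Nelfb* fell and then rose, and *Ccnt2* fell at L2C. Each stretch starts 250 bases before the RefSeq start site and stops at that site or at the first base of a GENCODE M21 exon, at chr11:103116075-103116230 (+ strand), chr2:25211490-25211739 (- strand) and chr1:127773914-127774163 (+ strand). Capitals mark the CCAAT box (CCAAT), the GC box (GGGCGG), a short TATA word (TATAA), the ETS core (CGGAAG), the core of the cAMP response element (TGACGT) or the E-box (CACGTG) on either strand, and matches that overlap run together.
Hexim1: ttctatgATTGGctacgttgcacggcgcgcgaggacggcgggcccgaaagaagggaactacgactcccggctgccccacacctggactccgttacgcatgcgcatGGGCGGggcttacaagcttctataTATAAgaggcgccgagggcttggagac
Nelfb: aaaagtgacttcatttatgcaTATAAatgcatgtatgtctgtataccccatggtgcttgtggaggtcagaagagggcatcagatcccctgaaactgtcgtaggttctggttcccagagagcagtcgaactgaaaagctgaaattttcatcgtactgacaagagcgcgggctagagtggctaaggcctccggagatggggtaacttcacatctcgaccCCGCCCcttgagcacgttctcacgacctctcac
Ccnt2: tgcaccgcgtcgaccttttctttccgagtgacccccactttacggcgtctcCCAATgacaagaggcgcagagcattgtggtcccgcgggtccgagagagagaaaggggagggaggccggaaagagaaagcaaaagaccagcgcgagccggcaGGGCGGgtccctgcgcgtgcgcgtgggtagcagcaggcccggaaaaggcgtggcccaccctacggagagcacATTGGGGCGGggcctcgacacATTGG
All 8 promoters held GGGCGG in the 250 bases before the start, against 32.7% of the 32851 promoters in the table. CCAAT was found in *Cdk9*, *Ccnt2*, *Hexim1* and *Ell2* (33.8% of all promoters), CGGAAG in *Cdk9*, *Ccnt1* and *Hexim1*, there past the end of the stretch shown (13.6%), TATAA in *Hexim1* and *Nelfb* (22.8%), TGACGT in *Ccnt1* and *Ell2* (6.47%), and CACGTG in none (6.02%). These words were chosen with the promoters in view, and a match is a run of letters, not a site. Both the members that rose and those that fell at L2C held GGGCGG.

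*Cdk9* (chromosome 2, 32705784 to 32713076, GRCm38), the kinase of P-TEFb, was far lower in MII and L1C inputs than at L2C. It stood at 4.74, 4.05 and 5.64 CPM in the MII inputs, at 2.28, 4.13 and 2.80 CPM in the L1C inputs, and at 125.7, 135.6 and 131.5 CPM in the L2C inputs. All L2C libraries lay above all others, and the MII and L1C libraries overlapped. The rise from L1C to L2C was 42.6-fold (log2 5.41, SE 0.21, adjusted p = 1.6e-11). The fall from MII to L1C (log2 -0.64, SE 0.21, adjusted p = 0.017) was no longer called without L1C replicate 1, without L1C replicate 3 or without MII replicate 3, nor in a fit of those stages alone (adjusted p from 0.053 to 0.076).

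The cyclins moved apart. *Ccnt1* (chromosome 15, 98538689 to 98570923), the cyclin best known as the partner of CDK9, was at 75.2, 65.4 and 63.2 CPM in the MII inputs and at 32.8, 28.6 and 34.7 CPM at L1C, then at 158.9, 156.7 and 172.2 CPM at L2C. The 3 stages did not overlap, with a 2.12-fold fall followed by a 5.08-fold rise (adjusted p = 6.1e-06 and 4.1e-10). *Ccnt2* (chromosome 1, 127774164 to 127808061), the alternative cyclin, was at 150.9, 158.7 and 154.1 CPM at MII, at 199.4, 177.6 and 171.3 CPM at L1C, and at 81.9, 64.1 and 80.3 CPM at L2C. Its L1C value was not called different from MII (log2 0.24, SE 0.12, adjusted p = 0.11), and it fell 2.42-fold from L1C to L2C (log2 -1.28, SE 0.13, adjusted p = 2.5e-07). Within a library the ratio of *Ccnt1* to *Ccnt2* counts, which does not depend on the scaling of libraries, was 0.440 ± 0.0502 (SD, n = 3) at MII, 0.176 ± 0.0231 at L1C and 2.18 ± 0.253 at L2C. In the NC embryos, also L2C, the ratio of exon counts was 1.65 ± 0.135. Part of the *Ccnt1* span, 2260 bases or 7.0%, also lies in the antisense gene *9330020H09Rik*, which held a mean of 189.0 counts per input against 2335 for *Ccnt1*.

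*Hexim1* (chromosome 11, 103116231 to 103119725), a gene of a single exon, had the widest range of the 9. The MII inputs held 6, 5 and 3 counts, the L1C inputs 12, 36 and 23, and the L2C inputs 900, 651 and 1421. In scaled units the means were 0.226 ± 0.0493, 1.14 ± 0.588 and 32.4 ± 3.06 CPM. The stages did not overlap, and both steps were called, at log2 2.27 (SE 0.45, adjusted p = 0.00075) and log2 4.84 (SE 0.29, adjusted p = 1.2e-09). When single libraries were left out, the log2 change from MII to L1C moved between 1.85 (without L1C replicate 2) and 2.65 (without L1C replicate 1). Without an MII library it ran from 2.12 to 2.38.

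NELF, which holds Pol II at the pause, is built from 4 kinds of subunit, of which 3 are members here. *Nelfb* (chromosome 2, 25199712 to 25211489) was at 36.9, 33.8 and 32.1 CPM in the oocyte, at 6.81, 7.80 and 10.5 CPM in L1C and at 58.8, 75.3 and 63.2 CPM in L2C embryos. That is a 4.11-fold fall and a 7.89-fold rise (adjusted p = 3.4e-07 and 1.0e-09). *Nelfa* (chromosome 5, 33897916 to 33936413) followed the same course with smaller steps: 355.8, 360.8 and 346.9 CPM at MII, 183.9, 226.9 and 237.0 CPM at L1C, and 447.1, 405.9 and 450.1 CPM at L2C. Its net gain from MII to L2C was slight (log2 0.29, SE 0.12, adjusted p = 0.033), and was no longer called without any 1 of 6 of the libraries (adjusted p from 0.054 to 0.12) or without the filter on low counts (adjusted p = 0.16). The libraries concerned were all 3 MII inputs, L1C replicate 2, and L2C replicates 1 and 3. *Nelfe* (chromosome 17, 34850391 to 34856372), the RNA-binding subunit, rose at both steps instead, from 2.80, 2.35 and 2.82 CPM at MII to 7.82, 9.47 and 9.54 CPM at L1C and 105.1, 145.5 and 108.7 CPM at L2C. The steps were log2 1.75 (SE 0.18, adjusted p = 2.7e-06) and log2 3.74 (SE 0.17, adjusted p = 6.9e-11). *Nelfcd*, which encodes the remaining subunit, fell and then rose in the same order as *Nelfa* and *Nelfb* (log2 changes of -0.94 and 0.39, edgeR adjusted p = 4.4e-05 and 0.013), but its L2C level stayed below that of the oocyte (-0.54, edgeR adjusted p = 0.0015).

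The ELL genes moved in opposite directions. *Ell* (chromosome 8, 70539457 to 70592858) was at 712.7, 756.9 and 693.6 CPM in the oocyte, at 316.2, 488.0 and 446.4 CPM in L1C and at 129.6, 154.2 and 143.8 CPM in L2C embryos. It fell at each step without overlap between stages, by 1.73-fold and then 2.93-fold (adjusted p = 0.00046 and 2.4e-07). *Ell2* (chromosome 13, 75706757 to 75772364) was at 1.42, 2.5 and 2.31 CPM at MII and 2.24, 2.60 and 2.26 CPM at L1C, which overlapped (log2 0.20, SE 0.23, adjusted p = 0.47), and then at 50.8, 40.5 and 47.4 CPM at L2C. Its rise from L1C to L2C was 19.5-fold (log2 4.28, SE 0.21, adjusted p = 1.6e-10). The ratio of *Ell2* to *Ell* counts in a library went from 0.00287 ± 0.000763 (SD, n = 3) at MII and 0.00583 ± 0.0011 at L1C to 0.328 ± 0.0644 at L2C, so *Ell* held more counts over its span at every stage. In exon counts of the NC embryos, also L2C, the ratio was 23.0 ± 4.4, with *Ell2* the higher one.

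Levels of different genes can be compared only per length. In the TPM deposited by the authors, which divide by the length of the gene span, *Ell* (mean 106.9 TPM) stood first at MII, followed by *Nelfa* (73.0), *Ccnt2* (36.2), *Nelfb* (23.4), *Ccnt1* (16.7), *Cdk9* (5.38), *Nelfe* (3.66), *Hexim1* (0.552) and *Ell2* (0.249), with no overlap between neighbours. At L1C the order began with *Ell* (50.6 TPM), *Nelfa* (36.4) and *Ccnt2* (35.0), with overlap between *Ell* and *Nelfa* and between *Nelfa* and *Ccnt2*. *Nelfe* (10.2), *Ccnt1* (6.46), *Nelfb* (4.70), *Cdk9* (2.83) and *Hexim1* (2.30) followed, where *Ccnt1* overlapped *Nelfb* and *Cdk9* overlapped *Hexim1*, and *Ell2* (0.233) was last. *Nelfe* (99.5 TPM) and *Cdk9* (88.6) led at L2C and overlapped. *Nelfa* (53.9) and *Hexim1* (48.0) followed and overlapped, as did *Nelfb* (27.1) and *Ccnt1* (24.1), and *Ell* (12.7) and *Ccnt2* (10.7), with *Ell2* (3.36) last.

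The levels of *Ell*, *Nelfa*, *Nelfb* and *Ell2* at L2C differed most between the experiments, which were counted in different ways. Scaled to the total of each library, *Ell* was at 150.3 ± 11.3 CPM (SD, n = 3) over its span in L2C inputs and at 11.2 ± 1.74 CPM on exons in NC embryos of the same stage, a ratio of 13.4. *Nelfa* (458.6 ± 28.5 against 38.1 ± 2.27 CPM) differed by a ratio of 12.0 and *Nelfb* (69.4 ± 8.60 against 9.56 ± 1.73 CPM) by 7.26. *Ell2* went the other way, at 48.8 ± 6.10 against 252.7 ± 12.8 CPM. Over 11078 protein-coding genes at 1 CPM or more in both experiments the median ratio was 1.15 and the quartiles were 0.528 and 2.67, and *Ell*, *Nelfa* and *Nelfb* stood at percentiles 97.2, 96.6 and 92.2 and *Ell2* at 7.0. Exons make up 5.8% of the *Ell* span, 10.3% of *Nelfa*, 29.1% of *Nelfb* and 15.0% of *Ell2*. Whether intronic reads, reads shared with other genes, the injection or the library preparation set these ratios was not tested. Per kilobase of exon the order in NC embryos was *Ell2* (25.7 ± 1.30 CPM per kb), *Nelfe* (23.8 ± 1.23), *Cdk9* (18.5 ± 1.86), *Hexim1* (15.7 ± 1.11), *Ccnt1* (14.2 ± 0.541), *Nelfa* (9.66 ± 0.574), *Ccnt2* (6.39 ± 0.269), *Ell* (3.61 ± 0.560) and *Nelfb* (2.79 ± 0.505). Neighbours in this order overlapped for *Ell2* and *Nelfe*, for *Hexim1* and *Ccnt1*, and for *Ell* and *Nelfb*. *Ell2* thus stood last of the 9 over spans and had the highest mean on exons, where it overlapped *Nelfe*.

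**Figure D2:**
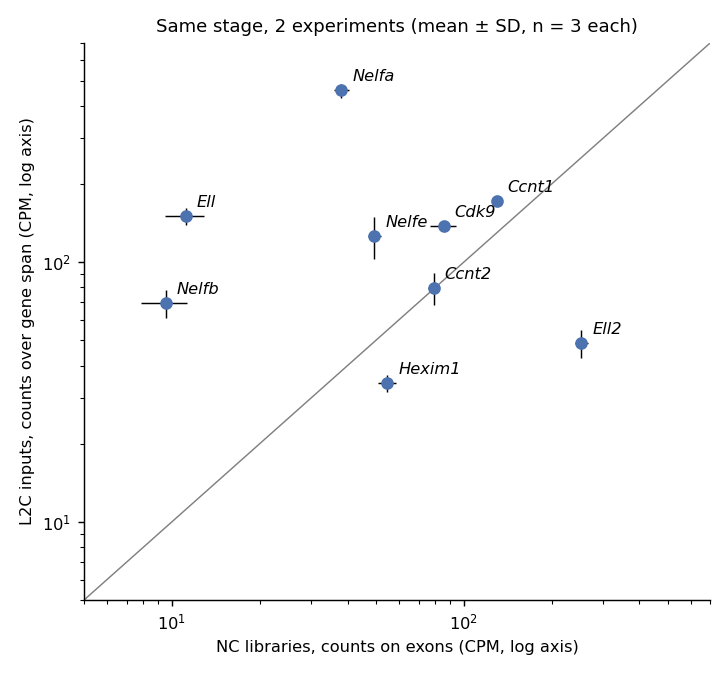
Members at L2C in the 2 experiments, in CPM of the library total on log axes, as mean ± SD of 3 libraries each, with a line where both are equal. *Ell*, *Nelfa* and *Nelfb* lie 7.26 to 13.4 times above the line in the span counts, and *Ell2* lies below it.

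The protein-coding genes nearest to each member over the 9 inputs were found among 14849 genes by the root mean square difference of centred log2(CPM + 1). *Bag5* and *Pfdn6* (both 0.15) were nearest to *Cdk9*, *Aqp9* and *Gde1* (both 0.09) to *Ccnt1*, and *Fbxo8* and *Vamp4* (both 0.08) to *Ccnt2*. *Map1lc3a* (0.10) and *Ankrd54* (0.11) were nearest to *Hexim1*. For the NELF subunits they were *Tut1* (0.07) and *Tent4a* (0.09) for *Nelfa*, *Dgat2* (0.11) and *Cstf1* (0.12) for *Nelfb*, and *Spout1* and *Actn2* (both 0.14) for *Nelfe*. *Fpgs* (0.08) and *Adamts4* (0.09) were nearest to *Ell*, and *Pak2* and *Glrx2* (both 0.13) to *Ell2*. No member was among the 2 nearest of another. The closest pairs of members were *Hexim1* with *Nelfe* (0.35), *Ccnt1* with *Nelfb* (0.39) and *Hexim1* with *Ell2* (0.42).

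Of 38 other genes of the pausing and elongation machinery, 10 rose and 17 fell from MII to L1C, 26 rose and 8 fell from L1C to L2C, and 21 rose and 12 fell between MII and L2C. Their median log2 changes were -0.31, 1.09 and 0.78. From MII to L1C, *Cdk12*, a kinase of the Pol II tail, rose from 11.7 ± 1.27 to 28.3 ± 2.65 CPM (SD, n = 3, edgeR adjusted p = 4.5e-06) and *Cdc73*, of the PAF1 complex, from 1.51 ± 0.647 to 6.18 ± 1.36 CPM (edgeR adjusted p = 0.00014). *Supt6*, a histone chaperone that travels with Pol II, fell from 164.5 ± 8.67 to 65.0 ± 3.92 CPM and *Leo1*, also of the PAF1 complex, from 23.3 ± 0.730 to 8.57 ± 1.60 CPM (edgeR adjusted p = 3.5e-07 and 5.9e-06). From L1C to L2C the smallest adjusted p-values among the risers belonged to *Eloa*, of elongin, at 6.76 ± 1.81 and 187.1 ± 16.3 CPM, and *Setd2*, a histone H3 lysine methyltransferase, at 12.2 ± 2.36 and 229.8 ± 30.2 CPM. *Ice2*, of the little elongation complex, fell from 57.5 ± 6.96 to 6.46 ± 0.610 CPM and *Tcea3*, of the TFIIS family, from 30.2 ± 3.89 to 3.21 ± 1.08 CPM. Against MII the rule named *Eloa*, *Ice2* and *Tcea3* again, and *Aff4*, the scaffold of the super elongation complex, which rose from 2.81 ± 0.524 to 58.5 ± 3.85 CPM (log2 4.38, SE 0.18, edgeR adjusted p = 1.6e-11).

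In the IP, RNA of a gene that carries more m6A than the rest of the library is over-represented. IP and input were compared at each stage over 21950 genes in 1 fit of all 18 libraries, and CPM below are on the scale of that fit. Of the 9 members 7 were called at MII (2 higher and 5 lower in the IP), 5 at L1C (1 and 4) and 7 at L2C (2 and 5). Of all genes tested, 38.6%, 33.9% and 44% were called, 17.7%, 15.8% and 22% as higher and 21%, 18.2% and 22% as lower. The study tagged genes with m6A from DESeq2 by log2 IP/input above 0, a p under 0.05 and counts above 1 in the input. That p was read here as unadjusted. With these thresholds applied to the edgeR fit, and without the further terms of that rule on missing p-values and on agreement between replicates, *Nelfe* and *Ell2* were m6A-tagged at MII, *Ell2* at L1C, and *Nelfa* and *Ell2* at L2C, where 19.5%, 18.9% and 24.3% of all genes were tagged. Scaling to library size alone raised log2 IP/input of all genes by a median of 0.24, 0.30 and 0.25 from the first to the last stage and turned the share of calls that were higher in the IP from 45.7%, 46.5% and 50.0% to 61.7%, 70.9% and 67.6%. Calls that this scaling ended are given beside the values, and reached a log2 IP/input of -0.60.

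**Figure D3:**
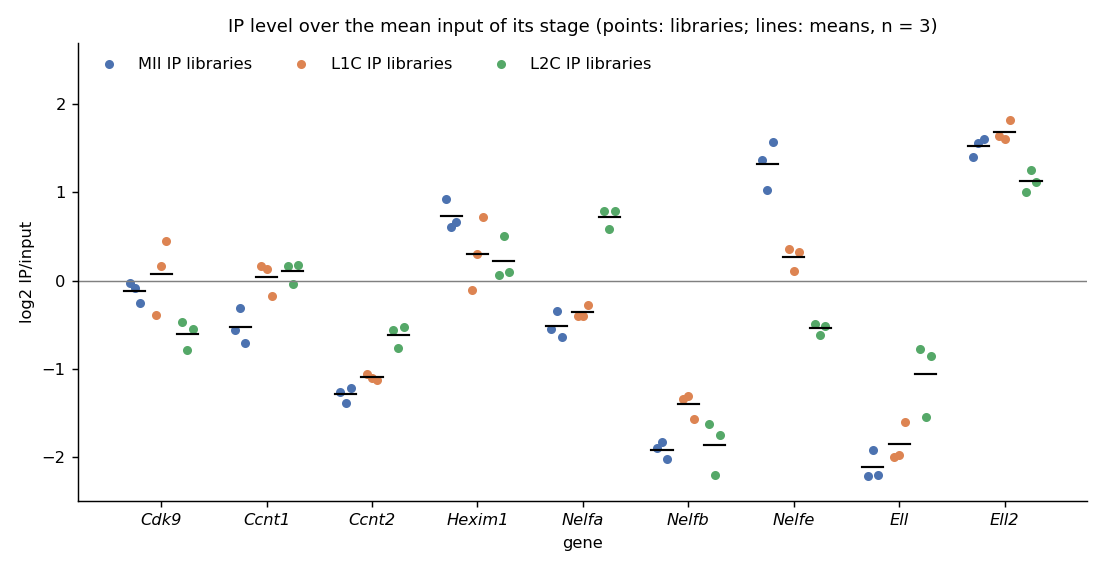
Log2 IP/input of each member, with 1 point per IP library taken over the mean of the 3 inputs of its stage, a line at the mean of 3 points, and colours for the stages. *Ell2* is above 0 and *Ccnt2*, *Nelfb* and *Ell* are below 0 in every IP library, *Nelfa* goes from below to above 0 at L2C, and *Nelfe* goes from above to below.

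The word GGACT, which matches the commonest form of the m6A consensus, is shown for *Ell2*, *Nelfa*, *Nelfb*, *Ell* and *Ccnt2*. In the IP *Ell2* was called higher at every stage, *Nelfa* lower at MII and L1C and higher at L2C, and the others lower at every stage. Each line is the first GGACT in the longest coding sequence of GENCODE M21 that lies with its flanks of 10 bases within 1 exon, with GGACT in capitals. In the order shown the windows lie at chr13:75707662-75707686 (+ strand, exon 1 of 12), chr5:33921962-33921986 (- strand, exon 2 of 11), chr2:25203912-25203936 (- strand, exon 8 of 13), chr8:70579101-70579125 (+ strand, exon 4 of 12) and chr1:127803486-127803510 (+ strand, exon 9 of 9).
Ell2: gggggctgcgGGACTgcgggaggag
Nelfa: tggccacgctGGACTcagacccctg
Nelfb: aaggtgcatgGGACTtaatagatag
Ell: atgtacacctGGACTgcctgggcag
Ccnt2: gccagcatatGGACTacaaagacac
The coding sequence held 6 GGACT in *Ell* (3.32 per kb), 4 in *Ell2* (2.09), 4 in *Ccnt1* (1.84), 3 in *Nelfb* (1.58), 2 each in *Hexim1* (1.87), *Cdk9* (1.79), *Nelfa* (1.26) and *Ccnt2* (0.922), and none in *Nelfe*, whose mRNA of 1607 bases also held none. Among 21125 protein-coding genes the median was 1.05 per kb, *Ell* stood at percentile 96.2 and *Ccnt2* at 44.8. Over the whole mRNA *Hexim1* held the most, 9 or 2.58 per kb (percentile 95.0), *Ell* held 1.95 per kb (percentile 86.8) and *Ccnt2* 0.594 per kb (percentile 25.8). Whether the number of these words goes with IP/input was not tested. Other forms of the consensus were not counted, and a match does not mark a methylated base.

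*Ell2* was the member highest in the IP. The IP libraries held 6.57, 7.37 and 7.64 CPM at MII against 1.74, 3.00 and 2.75 CPM in the inputs, 8.40, 8.22 and 9.46 against 2.57, 2.95 and 2.54 CPM at L1C, and 88.8, 106.6 and 96.9 against 49.1, 38.4 and 45.9 CPM at L2C. IP and input did not overlap at any stage. Log2 IP/input was 1.54 (SE 0.18, adjusted p = 1.3e-06), 1.69 (SE 0.17, adjusted p = 4.1e-07) and 1.13 (SE 0.15, adjusted p = 5.5e-06), and no change between stages was called (adjusted p = 0.83, 0.12 and 0.24 for L1C against MII, L2C against L1C and L2C against MII). In a fit of the L1C and L2C libraries alone the fall between them was called (log2 -0.74, adjusted p = 0.038).

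*Ell* was the member lowest in the IP at MII and L1C, and *Nelfb* at L2C. At MII the IP libraries held 186.6, 230.2 and 188.1 CPM against 872.3, 908.2 and 825.2 CPM in the inputs, at L1C 118.5, 119.6 and 156.3 against 362.1, 554.7 and 501.6 CPM, and at L2C 79.8, 46.7 and 75.4 against 125.4, 146.1 and 139.2 CPM. Its IP was 4.31-fold, 3.59-fold and 2.03-fold lower than its input, without overlap (adjusted p = 3.4e-08, 3.5e-07 and 0.00018). The gap narrowed by log2 1.09 from MII to L2C (SE 0.26, adjusted p = 0.0048). The change from L1C to L2C (0.83, SE 0.26, adjusted p = 0.048) stood at the threshold and was not called in 14 of the 18 fits that left out 1 library (adjusted p from 0.058 to 0.12) or in a fit of those stages alone (0.63, adjusted p = 0.15), nor with the replicate block or library size scaling (both 0.78, adjusted p = 0.094 and 0.053). The 4 libraries whose omission kept that call were L1C input 1, L1C IP 3, L2C IP 2 and MII IP 2. *Ell* is also the member whose span counts most exceeded its exon counts.

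The NELF subunits differed from each other in the IP. *Nelfa* was below its input at MII, with 292.3, 334.0 and 275.0 CPM in the IP against 435.4, 432.9 and 412.7 CPM, and above it at L2C, with 724.5, 625.5 and 723.4 against 432.8, 384.6 and 435.8 CPM. No library overlapped at either stage, and log2 IP/input was -0.51 (SE 0.11, adjusted p = 0.0012) and 0.73 (SE 0.11, adjusted p = 3.8e-05). The difference between them was 1.23 (SE 0.16, adjusted p = 2.0e-05). At L1C the value was -0.36 (SE 0.11, adjusted p = 0.018), which was not called under library size scaling (-0.06, adjusted p = 0.69), without the filter on low counts (adjusted p = 0.063), or without L1C input replicate 2 or 3 or L1C IP replicate 2 (adjusted p from 0.059 to 0.080). From L1C to L2C, *Nelfa* IP/input rose by 1.09 (SE 0.16, adjusted p = 0.00037).

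*Nelfe* moved in the opposite direction. It held 8.29, 6.54 and 9.49 CPM in the MII IP libraries against 3.43, 2.82 and 3.35 CPM in the inputs (log2 IP/input 1.34, SE 0.17, adjusted p = 4.6e-06). At L1C it held 13.0, 11.0 and 12.7 against 8.96, 10.8 and 10.7 CPM (0.27, SE 0.15, adjusted p = 0.19), which library size scaling moved to 0.57 (adjusted p = 0.0075). By L2C the IP was the lower one, at 81.6, 75 and 80.0 against 101.7, 137.9 and 105.3 CPM (-0.54, SE 0.14, adjusted p = 0.0044), a call that was not made under library size scaling (-0.29, adjusted p = 0.11). The fall of IP/input was 1.88 on the log2 scale from MII to L2C (adjusted p = 9.1e-06). It was made of steps of -1.07 (SE 0.23, adjusted p = 0.0062) and -0.81 (SE 0.21, adjusted p = 0.019), and the second was not called without L1C input replicate 1, L1C IP replicate 1 or L2C input replicate 2 (adjusted p from 0.051 to 0.054), nor with the replicate number as a block within each stage (-0.8, adjusted p = 0.051). *Nelfb* was lower in the IP throughout, with log2 IP/input of -1.92 (SE 0.17), -1.40 (SE 0.18) and -1.83 (SE 0.17) from the oocyte to the 2-cell embryo (adjusted p = 3.6e-08, 6.7e-06 and 8.8e-08) and no change called between stages.

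Among the P-TEFb genes *Ccnt2* was lower in the IP at each stage. Its log2 IP/input over the single IP libraries ran from -1.39 to -1.22 at MII, from -1.13 to -1.06 at L1C and from -0.77 to -0.53 at L2C. IP and input did not overlap at any stage (adjusted p = 3.4e-08, 4.7e-07 and 0.00024), and the value rose by 0.67 from MII to L2C (SE 0.16, adjusted p = 0.0052). *Ccnt1* was lower in the IP at MII (-0.52, SE 0.13, adjusted p = 0.0035), with no call at L1C (0.05, SE 0.13) or L2C (0.11, SE 0.13). With library size scaling the calls of *Ccnt1* were the reverse: none at MII (-0.28, adjusted p = 0.071), and higher in the IP at L1C and L2C (both 0.36, adjusted p = 0.028 and 0.019). Its change from MII to L2C was 0.62 (SE 0.18, adjusted p = 0.020), and was not called in a fit of those stages alone (0.46, adjusted p = 0.076), without the filter on low counts (0.58, adjusted p = 0.061), or without L2C input 2, L2C IP 3, MII input 1, MII IP 1 or MII IP 3 (adjusted p from 0.051 to 0.067). *Cdk9* was not called at MII (-0.12, SE 0.21, turning to 0.12 with library size scaling) or L1C (0.13, SE 0.21), and at L2C it was 1.51-fold lower in the IP (log2 -0.60, SE 0.17, adjusted p = 0.0096), a call not made with library size scaling (adjusted p = 0.099). *Hexim1* was not called at any stage, with values of 0.70 (SE 0.52), 0.39 (SE 0.30) and 0.23 (SE 0.22).

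IP/input differed between stages for 1 member between L1C and MII, 3 between L2C and L1C and 5 between L2C and MII, where 7.33%, 9.47% and 20.3% of all genes tested were called. *Nelfe* fell in all 3, against 4.21%, 4.47% and 9.21% of all genes, and the others rose, against 3.13%, 5% and 11.1%. Of the 38 other elongation genes 5, 3 and 11 were called. At MII, 14 of them were higher and 12 lower in the IP, at L1C 13 and 12, and at L2C 12 and 13. By adjusted p, which set the genes named and not the size of the ratio, *Cdk12* and *Paf1* came first among the higher ones at MII (log2 IP/input 1.09 and 1.08, edgeR adjusted p = 4.1e-07 and 3.7e-06), and *Ccnk*, the cyclin of CDK12 and CDK13, and *Eloc*, of elongin, at L1C (1.05 and 1.56) and L2C (0.82 and 1.70). By the same order *Aff1*, of the super elongation complex, came first among the lower ones at MII (-1.12) and L1C (-1.45), with *Ssrp1*, of the FACT complex, at MII (-1.52) and *Ctr9*, of the PAF1 complex, at L1C (-0.93). At L2C they were *Nelfcd*, at 32.2 ± 6.09 CPM in the IP and 109.4 ± 12.6 CPM in the input (-1.76, edgeR adjusted p = 1.6e-08), and *Ctr9* (-1.11). The change between stages had the smallest adjusted p for *Eaf1* (1.06) and *Ccnk* (0.60) upward and *Cdk12* (-0.75) and *Supt5* (-0.82), a subunit of DSIF, downward from MII to L1C. From L1C to L2C it was *Aff1* (1.03) upward and *Nelfcd* (-1.01) and *Eaf1* (-0.83) downward, and from MII to L2C *Ice2* (0.84) and *Aff1* (0.70) upward and *Supt5* (-1.13) and *Ctr9* (-0.73) downward.

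In the knockdown experiment the targeted mRNA was lower in every KD library. *Ythdc1* (chromosome 5, 86804221 to 86836659) stood at 522.8, 540.7 and 518.9 CPM in KD and at 1080, 1098 and 994.4 CPM in NC (log2 -1.0, SE 0.06, adjusted p = 1.3e-10). The merged count table stops on chromosome 7, at 108651906, so *Cdk9*, *Ccnt2*, *Nelfa* and *Nelfb* were compared in 3 KD and 3 NC libraries, and *Ccnt1*, *Hexim1*, *Nelfe*, *Ell* and *Ell2* in the 2 KD and 3 NC libraries that cover the whole annotation. CPM of the table are scaled to its own counts and cannot be set beside the others.

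Of the 9 members 6 were higher and 1 lower in KD. Among all genes, 33.5% of the 7433 tested in the table were higher and 37.4% lower, and 30.5% and 36.4% of the 17074 tested in the whole annotation, 70.9% and 66.8% in either direction. The changes were modest. No member met the thresholds of the study applied to the edgeR fit (p under 0.05, read here as unadjusted, and a log2 change over 1 in size). Of the genes tested, 37.2% in the table (14.7% higher and 22.5% lower) and 38.9% in the whole annotation (14.4% and 24.5%) met them. At an unadjusted p under 0.05 alone 7 members passed in edgeR, a rule for which the share of all genes was not counted. DESeq2 called 6 members at an adjusted p under 0.05, where it called 6108 of 11082 genes in the table and 11300 of 23278 in the whole annotation. Median log2 changes were 0.32 over the 9 members, and -0.06 and -0.09 over the genes tested in the table and the whole annotation.

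**Figure D4:**
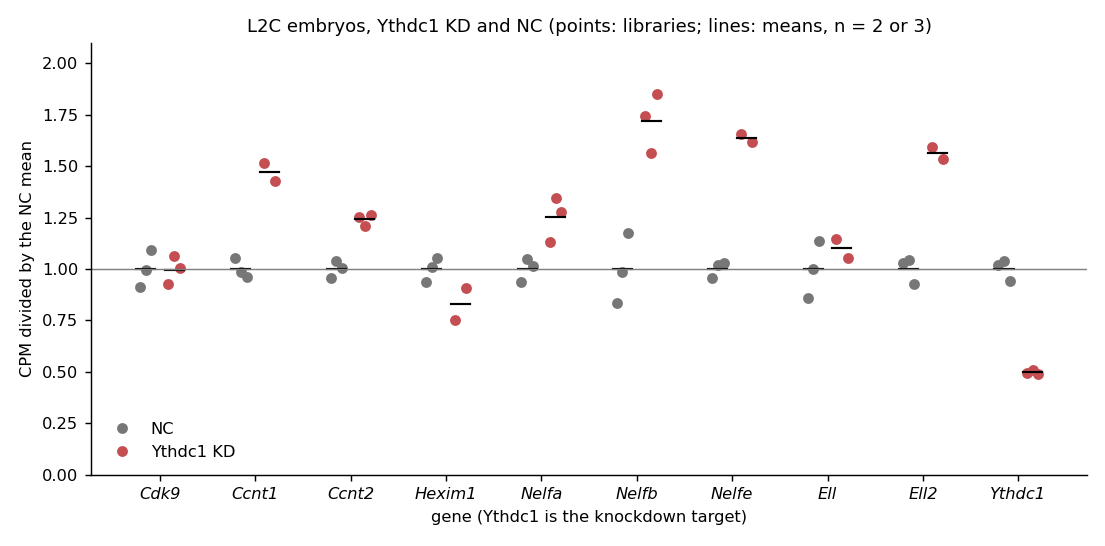
CPM of each member and of *Ythdc1* in KD and NC libraries divided by the NC mean, with 1 point per library and a line at the mean of a group (2 or 3 KD libraries, 3 NC libraries). KD points lie above all NC points for *Ccnt1*, *Ccnt2*, *Nelfa*, *Nelfb*, *Nelfe* and *Ell2* and below them for *Hexim1* and *Ythdc1*, and overlap them for *Cdk9* and *Ell*.

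All NELF members were higher in KD. *Nelfcd*, the remaining subunit but not a member, was higher as well (log2 1.42, SE 0.15, edgeR adjusted p = 1.8e-07). *Nelfb* was at 42.5, 38.1 and 45.1 CPM in KD and 20.4, 24.1 and 28.7 CPM in NC, without overlap (1.75-fold, log2 0.80, SE 0.15, adjusted p = 8.7e-05). *Nelfe* was at 80.2 and 78.3 CPM in KD and 46.2, 49.4 and 49.8 CPM in NC (1.64-fold, log2 0.71, SE 0.09, adjusted p = 8.8e-06). *Nelfa* was at 110.2, 130.8 and 124.3 CPM against 91.4, 102.2 and 98.5 CPM (log2 0.32, SE 0.10, adjusted p = 0.0055), a call not made with library size scaling (adjusted p = 0.073). The groups did not overlap for any of these members, and the share of all genes without overlap was not counted.

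*Ell2* was at 395.2 and 380.7 CPM in KD and at 255.5, 259.2 and 229.5 CPM in NC (1.56-fold, log2 0.64, SE 0.08, adjusted p = 3.9e-06). *Ell* overlapped between groups, at 12.6 and 11.6 against 9.43, 11.0 and 12.5 CPM (log2 0.15, SE 0.18, adjusted p = 0.47). Whether these changes differ from each other was not tested.

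Both cyclins were higher in KD, whereas the kinase was not. *Ccnt1* was at 192.5 and 181.9 CPM in KD and at 134.1, 125.5 and 122.1 CPM in NC (1.47-fold, log2 0.56, SE 0.08, adjusted p = 3.0e-05). *Ccnt2* was at 251.9, 244.0 and 254.0 CPM against 193.0, 208.8 and 202.5 CPM (1.24-fold, log2 0.31, SE 0.07, adjusted p = 0.00085). *Cdk9* overlapped, with means of 217.5 ± 15.0 CPM in KD and 218.0 ± 19.5 CPM in NC (SD, n = 3, SE of the log2 change 0.08, adjusted p = 0.99). *Hexim1* was the only member lower in KD, at 40.4 and 48.7 CPM against 50.3, 54.2 and 56.4 CPM (log2 -0.27, SE 0.11, adjusted p = 0.043). That call was lost in DESeq2 (adjusted p = 0.14), with RLE scaling (adjusted p = 0.073), and without KD replicate 1 (log2 -0.13), NC replicate 2 (-0.27) or NC replicate 3 (-0.24), with adjusted p of 0.43, 0.097 and 0.060.

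Of the 36 other elongation genes tested 22 were higher and 5 lower in KD, with a median log2 change of 0.33. *Eloc* rose from 2580 ± 202.2 to 4904 ± 278.9 CPM and *Ssrp1* from 87.2 ± 4.46 to 186.8 ± 7.66 CPM (SD, n = 3, edgeR adjusted p = 5.0e-10 and 3.0e-09). *Mllt3*, of the super elongation complex, fell from 853.1 ± 45.6 to 407.4 ± 28.5 CPM (n = 3, edgeR adjusted p = 2.2e-10), and *Ice2* from 18.1 ± 1.61 to 9.52 ± 3.02 CPM (n = 3 and n = 2, edgeR adjusted p = 0.00041). Markers of stage moved with the knockdown as well: the 10 transcripts of the 2-cell stage summed to between 413.1 and 481.7 CPM in KD and between 1725 and 1864 CPM in NC, with none at 0 in either group. The 10 oocyte transcripts summed to between 764.8 and 825.9 CPM in KD, with *Figla* at 0, and between 1672 and 1770 CPM in NC. Their part in the changes of the 9 members was not tested, and fewer cells of a kind cannot be told apart from less RNA per cell in such libraries.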

How the data were processed

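The 9 members and the gene lists were chosen with earlier results of these data known. SLIM-seq reads were quantified by the authors with kallisto against 1 target per gene that spans introns, and the deposited values are estimated counts, rounded here to whole numbers, with TPM per span length from the same runs. KD and NC reads were trimmed with Trimmomatic, aligned with HISAT2 and counted on GRCm38 exons with featureCounts 2.0.1, and the deposited raw counts ignore strand. The merged count table holds 25739 genes (46.4% of the annotation), so later genes were taken from the 5 complete per-sample files. Totals ranged from 11107421 to 39739950 and, in the merged table, from 3276715 to 5463868. Replicates of a group differed by more than sampling noise (chi-square per degree of freedom from 2.77 to 41.6).

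Counts were fitted with edgeR 4.0.16 (quasi-likelihood, TMM scaling, filterByExpr) in R 4.3.3 over all genes, with Benjamini-Hochberg adjustment over all genes tested and calls at an adjusted p under 0.05. The code was also run on simulated counts with far fewer changed genes than were called here, which does not test the scaling. Inputs and all SLIM-seq libraries formed 1 fit each, and KD with NC formed 2, of the merged table (7433 genes tested) and of the complete files (17074 genes tested). Alternatives were library size and RLE scaling, DESeq2 1.42.0, no filter, a replicate block, fits of the compared groups, other call rules and leaving out each library. The share of all genes whose groups did not overlap was not counted for any comparison. Named genes were all members, *Ythdc1*, the 2 other elongation genes called with the smallest adjusted p in each direction, and the 2 genes nearest to each member among those with a mean of at least 10 input counts. *Nelfcd* in inputs and in KD was added after its values were seen.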

Additional observations from a re-analysis of the deposited data

Results flagged for a closer look

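The m6A IP/input ratio of 5 members differed between stages in a test of the difference itself (interaction term of edgeR, adjusted over 21950 genes). *Nelfe* IP/input was lower by log2 -1.07 at L1C than at MII, by -0.81 at L2C than at L1C (not called with the replicate block, -0.8, adjusted p = 0.051) and by -1.88 at L2C than at MII. *Nelfa* IP/input was higher by 1.09 at L2C than at L1C and by 1.23 at L2C than at MII. *Ell* IP/input was higher by 0.83 at L2C than at L1C, a call lost in most fits that left out 1 library and with the replicate block, and by 1.09 at L2C than at MII. *Ccnt1* and *Ccnt2* IP/input were higher by 0.62 and 0.67 at L2C than at MII. The call for *Ccnt1* was lost in a fit of those stages alone (0.46, adjusted p = 0.076), without the filter on low counts (0.58, adjusted p = 0.061) and without any 1 of 5 libraries.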

How the results depend on the processing

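Among the values of single members, 509 kept direction and side of the threshold under other settings, 16 lost a call, 9 gained one and 5 changed sign, and with 1 library left out 1212 kept both, 37 lost a call, 5 gained one and 15 changed sign. The cause was not tested. The sign changes were of values not called in the fits reported above: *Cdk9* IP/input at MII was 0.12 with library size scaling, *Ccnt1* IP/input from L1C to L2C was -0.13 and *Nelfb* from MII to L2C was -0.09 in fits of those stages alone, and *Cdk9* in KD was 0.01 in DESeq2 and with RLE scaling. With 1 library left out, log2 values ran from -0.03 to 0.36 for *Ell2* in inputs from MII to L1C, from -0.08 to 0.41 for *Cdk9* and from -0.06 to 0.15 for *Ccnt1* in the IP at L1C, and from -0.05 to 0.07 for *Cdk9* in KD. For the change of IP/input they ran from -0.69 to 0.09 for *Hexim1* and -0.01 to 0.37 for *Ell2* from MII to L1C, from -0.05 to 0.14 for *Ccnt1* and -0.57 to 0.21 for *Hexim1* from L1C to L2C, and from -0.03 to 0.23 for *Nelfb* from MII to L2C.

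With a log2 change over 1 also required, 4 members were called in inputs from MII to L1C, 3 in the IP at L2C, 1 and 3 for the change of IP/input from L1C and from MII to L2C, and 0 in KD, the last threshold chosen after seeing the data. The share of all genes that met this added threshold was not counted, so these counts cannot be read as many or few. The thresholds of the study gave 2, 1 and 2 members in the IP at MII, L1C and L2C and 0 in KD. For the change of IP/input from MII to L1C, DESeq2 and library size scaling each called 2 members. Over all genes they called 2215 of 21194 and 1816 of 21950, where the fit reported above called 1609 of 21950. From L1C to L2C DESeq2 called 5 members and 3053 of 21931 genes, where the fit reported above called 2079 of 21950. Leaving out 1 library gave 1 to 2 and 1 to 4 members in these comparisons.

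The study took IP and input RNA from the same batches, but the labels do not say that a shared number marks a batch. The correlation of deviations between same-numbered libraries ran from -0.143 to 0.318 in inputs, from -0.301 to 0.182 between IP and input and from -0.039 to 0.048 between KD and NC. With the replicate block 1 member was called for the change of IP/input from L1C to L2C, where *Nelfe* (-0.8, adjusted p = 0.051) and *Ell* (0.78, adjusted p = 0.094) were not. Over all genes the block gave 1067 calls in place of 1609 from MII to L1C and 1168 in place of 2079 from L1C to L2C, where leaving out L1C IP replicate 3 or L2C IP replicate 3 gave 1367 and 1269. The median of all genes moved by 0.13 with RLE scaling in inputs from L1C to L2C, and by 0.14 from MII to L2C and -0.12 in the KD table with library size scaling. Among calls for the change of IP/input, the share that were higher went from 42.6% to 53.3% from MII to L1C with library size scaling, from 52.8% to 44.8% and 43.7% from L1C to L2C with library size and RLE scaling, and from 54.6% to 47.3% from MII to L2C with RLE scaling. Calls gained for that change were *Ccnt1* from MII to L1C (DESeq2 and library size scaling), *Cdk9* and *Ccnt2* (DESeq2) and *Ell2* (stages alone) from L1C to L2C, and *Cdk9* from MII to L2C (stages alone). *Hexim1* at MII, with 3 to 6 counts per input, held the fewest input counts of the members at any stage. The effect of depth on its values was not tested.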
